A study of Mus musculus with 6 samples.

Results

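The mouse major histocompatibility region was described here as all 50 bp windows with captured methylated DNA on chromosome 17 between 33.9 and 37.3 Mb (build mm10). It held 6355 of the 2915907 windows listed for chromosomes 1 to 19 in any of 4 libraries, and the rest of chromosome 17 held 125989. The windows were chosen by position alone, and no measured value entered the choice. Microglia, the resident macrophages of the central nervous system, were compared between naive mice and mice at peak disease in EAE (experimental autoimmune encephalomyelitis), which models multiple sclerosis. Both groups were Ccr2rfp/+::Cx3cr1gfp/+ mice on the C57Bl/6 strain, so the naive cells too carried 1 reporter copy at each chemokine receptor gene. EAE was induced at 24 to 28 weeks of age with a peptide of myelin oligodendrocyte glycoprotein (MOG, residues 35 to 55), and 30 mice were pooled per condition. No age was given for the naive mice. Cells came from brains per the series text, and from brains and spinal cords per the extraction protocol, and were sorted on F4/80 and CD45. The assay, MiGS, sequences DNA fragments that a methyl-CpG binding domain has pulled down, and 2 libraries were made per condition. They are called naive 1, naive 2, peak 1 and peak 2. The submitters call them biological replicates, but nothing says how the pooled animals were divided between them, so the spread between libraries may be partly technical. RNA was sequenced in 1 library per condition.

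The major histocompatibility complex is the most polymorphic gene cluster of vertebrates. Its class I molecules show peptides made inside the cell to cytotoxic T cells, and its class II molecules show peptides from outside to helper T cells. Between these genes lie the genes that cut and load the peptides, complement and cytokine genes, and housekeeping genes of chromatin and splicing. In the mouse, where the complex is called H-2, class I genes sit at both ends: H2-K1 before the class II genes, and the D, Q, T and M series after the class III genes. Microglia hold little class I and class II protein at rest and make more under interferon gamma. Methylation of cytosine in CG dinucleotides is usually absent from CG-rich promoters and dense in the bodies of transcribed genes. The capture counts methylated fragments, so a high value needs both many CG sites and their methylation, and the method gives no methylation level per site.

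The deposited value of a window is its read count divided by 1 size factor per library, and 1 read was worth between 0.816 and 1.16 in these units. Each listed window had at least 4 reads in naive 1, peak 1 or peak 2, or at least 3 reads in naive 2, with 0 of 2915907 windows as exceptions. An unlisted window is counted as 0 here, but it may hold a few reads in each library. Sums over windows of chromosomes 1 to 19 were 30424742 to 43970332 reads per library, and 13700660 to 20633033 of them lay outside windows with over 2000 reads. On chromosome 17 there were 98 such windows, all between 39843001 and 39848800 and none in the region, and they were left out of the sums below. Signal is given as the sum of values per kb of genome.

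Promoter sequences are shown first, because gene starts carried less captured signal than the sequence further into the genes. Of 47 genes fixed by role (class I, class II, peptide loading, complement, cytokines, chromatin and framework, neural, tubulin and membrane), 37 had a RefSeq promoter (GRCm38.p6, 250 bases before to 50 after the start), 47 promoters in all. Of these 47 promoters, 42 had no listed window. The 3 with the most reads are shown here with 3 of the 42 unlisted ones, and because those 42 tie at 0, the choice among them was made after the values were seen. They are the one with the most CG dinucleotides (Ehmt2), the classical class I gene of the K end (H2-K1) and the one with no CG (H2-Eb1). Capitals mark every CG, which reads the same on both strands. Of 31396 promoters on chromosomes 1 to 19, 94.8% held a CG.
Lta: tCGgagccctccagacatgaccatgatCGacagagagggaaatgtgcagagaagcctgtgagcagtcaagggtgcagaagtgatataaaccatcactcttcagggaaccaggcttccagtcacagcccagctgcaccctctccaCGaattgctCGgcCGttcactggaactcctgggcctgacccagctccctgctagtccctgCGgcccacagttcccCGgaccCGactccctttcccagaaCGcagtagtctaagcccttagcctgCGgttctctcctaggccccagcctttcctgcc
Zfp57: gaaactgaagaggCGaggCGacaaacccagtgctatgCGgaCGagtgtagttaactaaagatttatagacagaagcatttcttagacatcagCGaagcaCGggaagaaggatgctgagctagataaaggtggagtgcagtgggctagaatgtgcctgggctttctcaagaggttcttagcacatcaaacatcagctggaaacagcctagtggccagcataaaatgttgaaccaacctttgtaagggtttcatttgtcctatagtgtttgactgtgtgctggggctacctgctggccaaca
H2-DMa: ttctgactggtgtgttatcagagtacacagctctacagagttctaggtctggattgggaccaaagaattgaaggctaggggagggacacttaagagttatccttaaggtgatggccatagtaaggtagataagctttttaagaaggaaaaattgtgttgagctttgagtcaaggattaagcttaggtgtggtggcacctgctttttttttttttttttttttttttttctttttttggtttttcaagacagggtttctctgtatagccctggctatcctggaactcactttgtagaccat
Ehmt2: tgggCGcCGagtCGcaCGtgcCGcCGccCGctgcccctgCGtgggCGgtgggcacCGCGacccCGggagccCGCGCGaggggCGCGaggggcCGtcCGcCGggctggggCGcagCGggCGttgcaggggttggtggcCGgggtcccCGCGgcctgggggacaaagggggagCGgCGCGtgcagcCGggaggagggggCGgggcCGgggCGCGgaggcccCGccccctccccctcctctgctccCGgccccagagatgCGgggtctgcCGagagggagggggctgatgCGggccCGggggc
H2-K1: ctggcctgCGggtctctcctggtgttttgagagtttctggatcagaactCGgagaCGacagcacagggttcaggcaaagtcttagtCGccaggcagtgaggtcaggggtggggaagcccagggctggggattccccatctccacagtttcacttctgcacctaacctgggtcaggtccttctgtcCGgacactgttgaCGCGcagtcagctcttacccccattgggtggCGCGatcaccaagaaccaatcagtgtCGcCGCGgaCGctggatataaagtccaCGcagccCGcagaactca
H2-Eb1: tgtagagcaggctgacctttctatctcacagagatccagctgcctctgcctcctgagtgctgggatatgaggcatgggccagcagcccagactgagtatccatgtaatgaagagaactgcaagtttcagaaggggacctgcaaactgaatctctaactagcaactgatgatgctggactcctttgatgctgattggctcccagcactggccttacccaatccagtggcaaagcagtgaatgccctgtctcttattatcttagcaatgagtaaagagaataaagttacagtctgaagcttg

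Lta encodes lymphotoxin alpha, a cytokine of the tumour necrosis factor family, and its promoter at chr17:35205302-35205601 held 10 CG. At most 9, 7, 15 and 10 reads fell in 1 of its windows in naive 1, naive 2, peak 1 and peak 2. Zfp57 encodes a zinc finger protein that keeps methylation at imprinted genes. Its promoter at chr17:37000913-37001212 held 6 CG, with at most 4, 13, 8 and 10 reads. The downstream promoter of H2-DMa, a chain of the molecule that exchanges peptides on class II, held 0 CG at chr17:34125268-34125567. It still had at most 1, 3, 14 and 7 reads. All 4 libraries had reads at these 3 promoters. In raw reads, both peak counts were above both naive ones at Lta and H2-DMa, and the groups overlapped at Zfp57. A read was worth 1.14 and 1.16 in the naive libraries and 0.828 and 0.816 in the peak libraries. With that scaling the groups overlapped at Lta as well, and they stayed apart at H2-DMa. Ehmt2, which encodes the histone H3 lysine 9 methyltransferase G9a, had 40 CG at chr17:34898720-34899019. H2-K1 had 15 CG at chr17:34000284-34000583, and H2-Eb1, the class II E beta chain, had 0 CG at chr17:34305617-34305916. None of the windows over these 3 promoters was listed. Unlisted promoters with many CG also included those of Ring1 (37 CG), a ubiquitin ligase of polycomb complex 1, and of Daxx (33 CG), a histone H3.3 chaperone.

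Over all 222 RefSeq promoters of 175 genes in the region, 28 (12.6%) overlapped a listed window. The share was 17.4% of 1404 promoters on the rest of chromosome 17 and 17.5% of 29770 promoters on the other 18 autosomes. Promoters with more than 20 CG were listed least often in the region, 1 of 57 (1.75%), beside 6.63% on the rest of chromosome 17 and 9.54% on the other autosomes. Promoters with 5 to 10 CG were listed in 10 of 48 cases (20.8%), beside 35.8% and 39.4%. For 11 to 20 CG the shares were 17%, 18.7% and 20.2%, and for 0 to 4 CG they were 12.5%, 13.6% and 9.87%. These shares describe promoters, some of which share a gene, and were not tested.

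**Figure D1:**
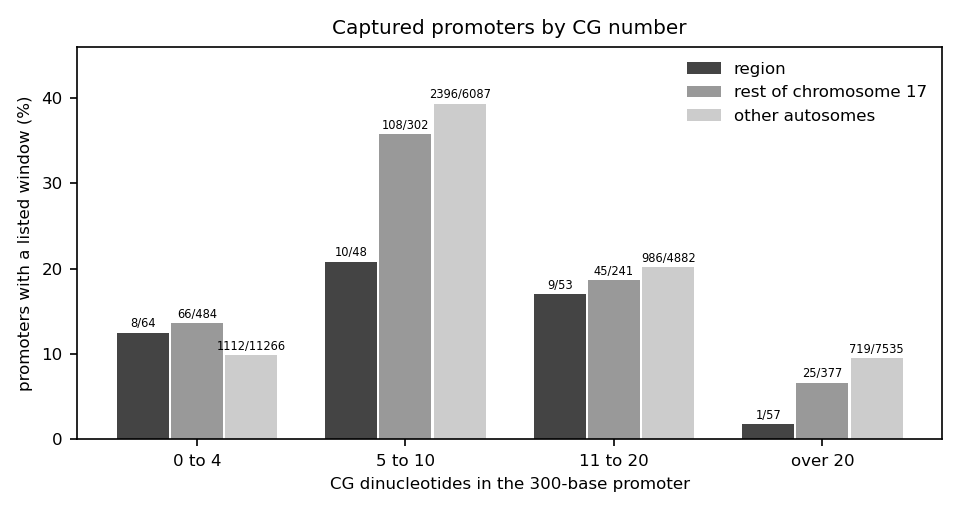
Share of 300-base RefSeq promoters that overlap a listed window (y axis, percent), by the number of CG dinucleotides in the promoter (x axis), in the region, on the rest of chromosome 17 and on the other autosomes. Bar labels give listed promoters over all promoters. In the region 1 of 57 promoters with over 20 CG was listed, and 10 of 48 with 5 to 10 CG.

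The region as a whole carried more captured signal than the rest of its chromosome in each library. Its signal per kb was 12.2 in naive 1, 18.7 in naive 2, 11.2 in peak 1 and 13.4 in peak 2, against 8.08, 12.5, 8.16 and 8.36 on the rest of chromosome 17. The ratio of region to rest was 1.5 and 1.49 in the naive libraries and 1.38 and 1.60 in the peak libraries, 1.5 ± 0.00758 (SD, n = 2) against 1.49 ± 0.157 (SD, n = 2). The 2 peak values lie on either side of the naive ones, and the mean log2 ratio differed by -0.01 between peak and naive (exact permutation test, two-sided, p = 1, where 2 against 2 libraries cannot give less than 0.333). With the windows of over 2000 reads kept this difference was 0.10. Without the genome sequence the number of CG sites per window was not measured, so more CG sites and more methylation cannot be told apart. More positions carried signal as well: 7.15%, 6.64%, 8.38% and 7.34% of the region's 50 bp positions, against 4.93%, 4.98%, 6.13% and 5.11% of the rest. All 4 libraries had reads in 3345 of the 6355 windows (52.6%), beside 46.7% on the rest of chromosome 17.

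Chromosome 17 was cut into 26 segments of the same length, 3.4 Mb, outward from the region. The region held the most protein-coding genes of all 26, with 171 fully inside. In captured signal it ranked 7th, 6th, 8th and 6th in naive 1, naive 2, peak 1 and peak 2. The neighbouring segment before it, with 70 protein-coding genes, had 13.6, 19.8, 13.1 and 13.8 per kb, more than the region in each library. The segment after it, with 54, had 3.12, 9.68, 2.97 and 3.87 per kb.

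The excess lay inside genes. Within protein-coding genes, which cover 1394 kb of the region, signal per kb was 22.5, 32.2, 20.2 and 25.1, against 12.3, 18.4, 12.2 and 12.9 within genes of the rest of chromosome 17. Between genes it was 4.94, 9.38, 5.01 and 5.24 in the region and 5.05, 8.25, 5.23 and 5.10 on the rest. Signal within genes was thus higher in the region than elsewhere on the chromosome in each of the 4 libraries. Signal between genes was lower in naive 1 and peak 1 and higher in naive 2 and peak 2. An unbroken run of 11 windows near Gm18604 added summed values of 87.4, 3723, 158 and 658 to the 2006 kb between genes. The comparison between genes was not repeated without it.

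**Figure D2:**
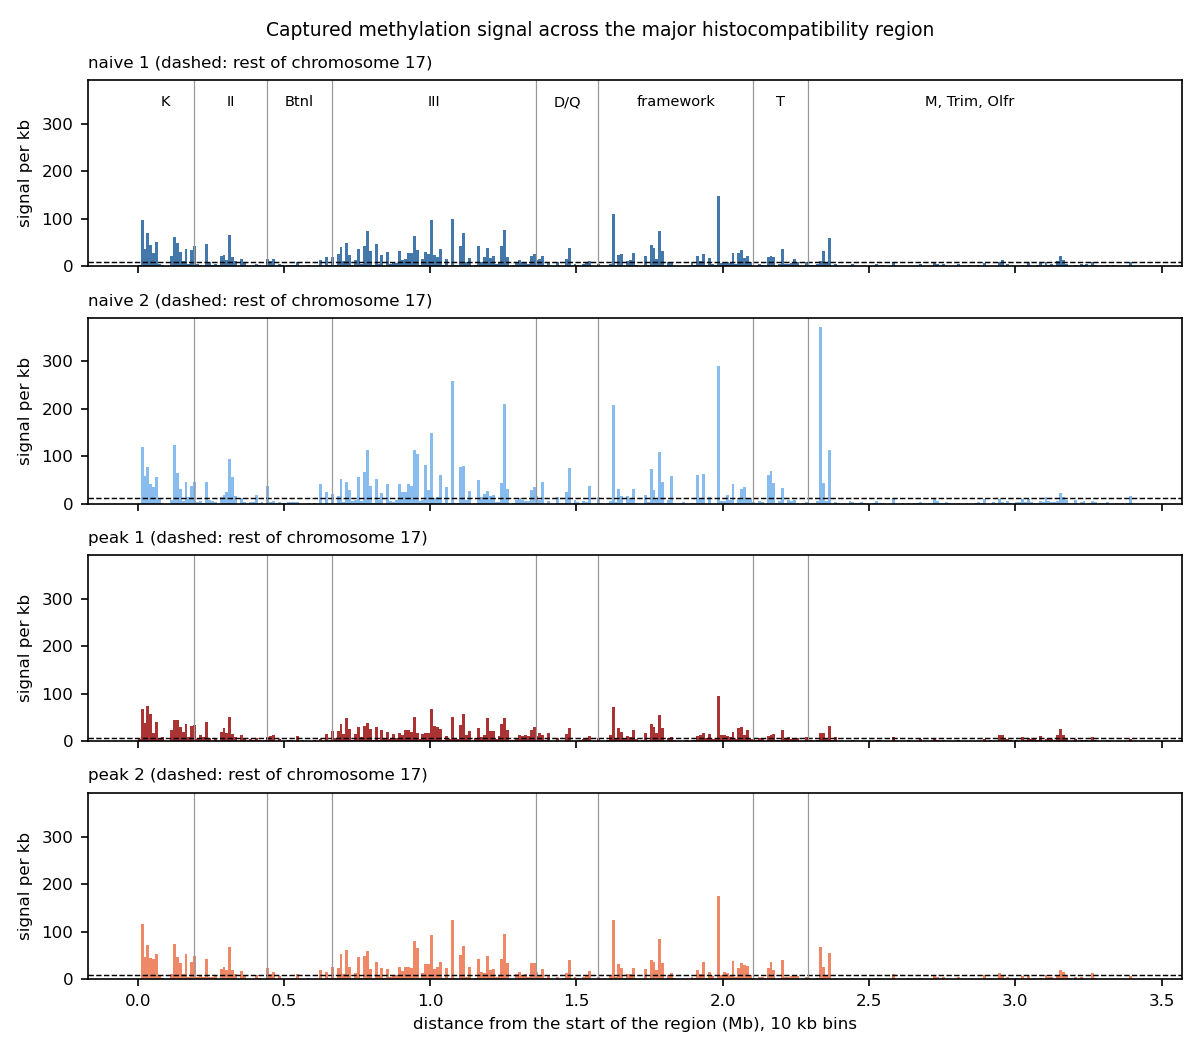
Captured signal per kb (y axis) in 340 bins of 10 kb along the region (x axis, distance from its start in Mb), 1 panel per library. Grey lines separate the 8 subregions and the dashed line is the library's level on the rest of chromosome 17. Signal is high in the K end, class III and the framework interval, and low in the last 1110 kb beyond its first bins, 1 of which is the tallest of the naive 2 panel.

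Signal was uneven along the region. The 34 bins of 10 kb with the highest mean held 49.2% of it, and 36 of 340 bins had no listed window. Between gene anchors the region falls into 8 subregions, and their order from high to low was the same in 3 libraries, with the 2 lowest in exchanged places in naive 2. The K end (33900001 to 34092378, from the region start to H2-Oa) had 30.5, 38.6, 29.4 and 34.3 per kb in naive 1, naive 2, peak 1 and peak 2, on average 3.62 times the rest of chromosome 17. Class III (34564286 to 35263093, Notch4 to H2-D1), with the complement, tumour necrosis factor and heat shock genes, had 23.2, 34.3, 20.7 and 25.5 per kb, or 2.79 times. The framework interval from Pou5f1 to Abcf1 (35474564 to 36003470), mostly housekeeping genes, had 16.6, 25.2, 14.7 and 18.6 per kb, or 2.02 times. These 3 intervals hold 98 of the 171 protein-coding genes.

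The antigen-presenting intervals were lower. Class II (34092379 to 34341410, H2-Oa to H2-Eb2) had 11.8, 15.5, 11.8 and 12.6 per kb, 1.41 times the rest. The T interval (36003471 to 36190151) had 8.70, 13.8, 7.28 and 9.14, or 1.04 times, and the D and Q interval (35263094 to 35474563) had 6.65, 11.5, 6.42 and 6.63, or 0.828 times. The Btnl interval of butyrophilin-like genes (34341411 to 34564285) had 4.61, 7.08, 4.54 and 5.77, or 0.593 times. The last and longest interval (from 36190152 to the region end), with M series class I genes, Trim genes and olfactory receptors, had 3.10, 7.62, 3.29 and 3.35, or 0.441 times. Against the other 18 autosomes, which carried less signal than chromosome 17, the D and Q interval was on the other side of the reference (log2 ratio 0.06). With the windows of over 2000 reads kept, the T interval was below the rest of chromosome 17 (log2 ratio -0.10).

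**Figure D3:**
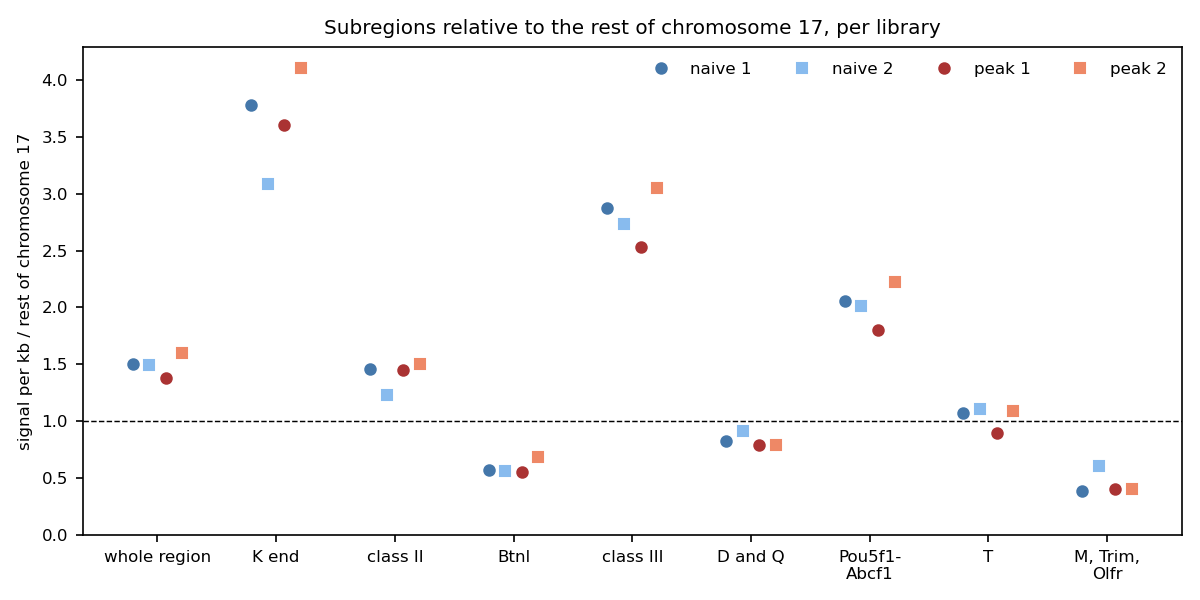
Signal per kb of the region and of its 8 subregions divided by that of the rest of chromosome 17 (y axis), 1 point per library. The dashed line marks 1. All libraries lie above 1 for the K end, class II, class III and the framework interval, and below 1 for the Btnl, D and Q, and M, Trim and olfactory receptor intervals.

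In the D and Q interval and the T interval, signal was higher between protein-coding genes than within them in each library. In the D and Q interval, signal within protein-coding genes was 4.62, 7.87, 4.51 and 5.44 per kb and signal between them 7.07, 12.2, 6.82 and 6.87. In the T interval it was 6.18, 10.2, 5.74 and 5.5 within and 10.5, 16.5, 8.38 and 11.7 between genes. The Btnl interval had this order in 3 libraries, with 4.39, 3.16, 4.95 and 4.93 within and 4.81, 10.6, 4.17 and 6.53 between genes. The order was the opposite in the other 5 subregions, also in the last interval with its M series class I genes (7.04, 10.2, 7.65 and 6.79 within, 1.98, 6.88, 2.04 and 2.36 between). Class III had 30.5, 45.1, 26.4 and 33.7 within genes and 8.55, 12.7, 9.21 and 8.99 between them. The H2-Q, H2-T and H2-M genes are close copies of each other. No source used here says how reads that fit several copies were handled, and values in these intervals are uncertain.

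The highest values came in unbroken runs of windows inside a few genes. Of 1335 runs in the region, 6.97% spanned at least 10 windows, beside 4.50% of 28856 runs on the rest of chromosome 17. The run with the highest summed signal covered 2100 bp (34976901 to 34979000) inside Hspa1l, which encodes a heat shock protein of the HSP70 family. Its window maxima were 45, 198, 33 and 81 reads. The next lay between genes, 826 bp from Gm18604 (36231151 to 36231700), with maxima of 14, 590, 45 and 133 reads. Without this run the last interval had 3.02, 4.27, 3.15 and 2.76 per kb, with naive 2 still the highest, an alternative added after the data were seen. Dhx16, an RNA helicase of the splicing machinery, held runs 3 and 4 by sum (35882301 to 35883400 and 35880951 to 35882000), and Prrc2a, an RNA-binding protein, run 5 (35155801 to 35156700). These 5 runs, 114 windows, held 5.95%, 16.0%, 3.88% and 8.03% of the region's signal. Naive 2 was the highest and peak 1 the lowest in that share.

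That order of libraries recurred across the region, and it touches each comparison of high values below. When the 6355 windows were split into 4 groups by mean signal, the highest group averaged 18.1, 33.2, 11.8 and 21.1 per window in naive 1, naive 2, peak 1 and peak 2. In the lowest group the averages were 0.470, 1.67, 2.09 and 0.474. Signal was thus most concentrated in naive 2 and flattest in peak 1. Across the windows, the log2 values of naive 2 and peak 1 had r = 0.324, and those of naive 1 and peak 2 had r = 0.816, a description of windows that share fragments.

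Around gene starts the region showed a deeper dip than the rest of the chromosome. Within 500 bp on either side of 150 gene starts the mean signal per kb was 5.65, 8.19, 6.17 and 5.82, and from 2 to 5 kb into the gene it was 22, 33.4, 19.4 and 26.0. Over 729 gene starts of the rest of chromosome 17, the values were 7.80, 15.7, 5.81 and 8.09 at the start and 13.2, 20.1, 12.6 and 13.8 further in. From 2 to 5 kb before the start the region had 18.2, 28.2, 16.7 and 20.9, against 10.4, 16.5, 9.79 and 10.8 on the rest. So the starts in the region were lower than those elsewhere in 3 libraries, while the flanks were higher in all 4. Of 173 protein-coding genes that touch the region, 99 had no listed window from 1000 bp before to 500 bp after their start. For genes with no promoter entry this count used both gene ends.

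**Figure D4:**
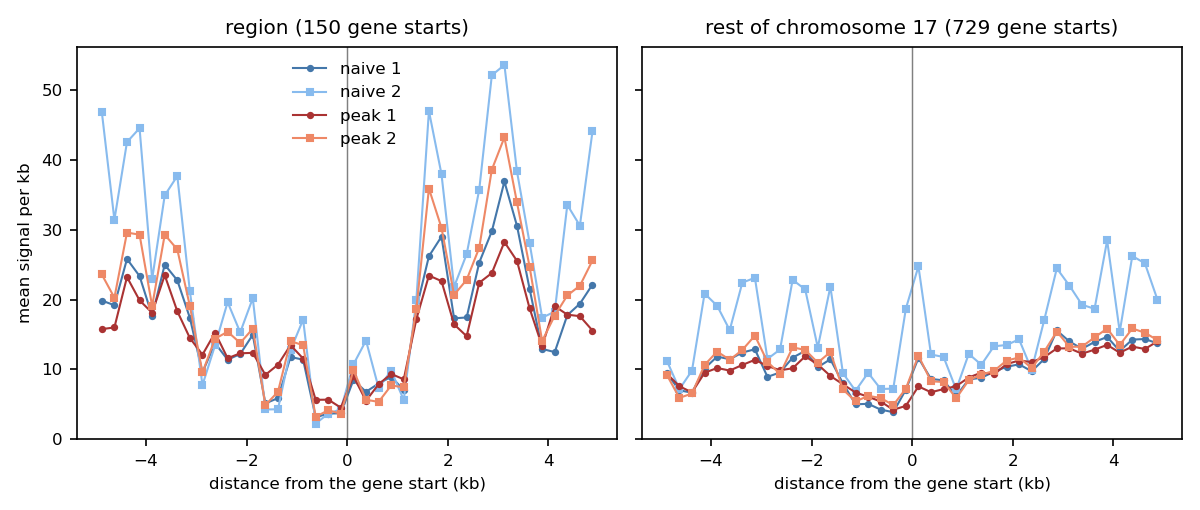
Mean captured signal per kb (y axis) in steps of 250 bp from 5 kb before to 5 kb after gene starts (x axis, kb, in the direction of transcription), for 150 starts of the region and 729 of the rest of chromosome 17. Lines are libraries. The dip at the start is bounded by higher flanks in the region.

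Gene starts that did carry signal were led by Gm11127, a predicted gene of the T interval, with 105, 383, 48.0 and 134 per kb. Vwa7, a von Willebrand factor A domain protein of class III, had 101, 232, 98.8 and 102 per kb at its start. Tapbp, which encodes tapasin, the bridge between empty class I molecules and the peptide transporter, had 50.7, 102, 35.9 and 106. Lta had 57.5, 42.6, 63.5 and 73.5, and C2, complement component 2, had 36.7, 66.6, 15.7 and 39.2. For C2, with no promoter entry, both gene ends were used. Naive and peak values overlapped at Gm11127, Vwa7, Tapbp and C2. At Lta both peak values were above both naive ones, and its fitted change was not among the 3 smallest p in that direction.

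Gene bodies (the gene without 500 bp at each end) are described by role. Where naive and peak values did not overlap, the share of all gene bodies without overlap was not counted. Among chromatin and framework genes, Ring1 was the highest gene body of the region with 177, 392, 118 and 223 per kb. Daxx had 107, 129, 76.5 and 122, and Ehmt2 75.1, 106, 56.8 and 72.3. Each of these 3 pairs a promoter with no listed window with a body far above the median of 10.5 per kb over 158 gene bodies of the region. Brd2, a bromodomain reader of acetylated histones, had only 1.74, 8.42, 11.9 and 6.5 per kb, and Pou5f1, the pluripotency factor Oct4, had 0.909, 0, 5.08 and 0.654. Zfp57 had 9.41, 10.7, 5.51 and 10.6. Outside the fixed roles, the highest bodies were Hspa1l (169, 451, 81.2 and 203), the zinc finger gene Zbtb22 (169, 227, 121 and 234), Ddah2, which breaks down methylated arginines (172, 216, 97.0 and 175) and Dhx16 (127, 246, 83.4 and 151). In Ring1, Daxx, Ehmt2 and these 4 genes, peak 1 was the lowest library.

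The 5 peptide loading genes all carried signal in all 4 libraries, with means from 27.7 to 59.3 per kb. Psmb8, an inducible subunit of the immunoproteasome, had 47.2, 80.2, 47.6 and 62.1. Psmb9, another such subunit, had 39.1, 32.9, 33.1 and 36.3. Tap1 and Tap2 form the transporter that pumps peptides into the endoplasmic reticulum. Tap2 had 51.4, 80.9, 33.4 and 56.4, and Tap1 had 27.8, 19.6, 33.6 and 29.9. Tapbp had 40.3, 66.2, 44.2 and 53.2. Naive and peak values overlapped in Psmb8, Tap2, Tapbp and Psmb9, and both Tap1 peak values were above both naive ones.

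Class II genes ranged from rank 6 among the gene bodies of the region to no signal. H2-Oa, a chain of the molecule that holds back peptide exchange, had 152, 169, 91.0 and 151 per kb, and H2-Ob, its partner chain, had no listed window in its body. The classical genes were far below H2-Oa: H2-Ab1 had 15.7, 4.92, 10.5 and 11.5, H2-Aa 2.5, 3.42, 11.8 and 2.80, and H2-Eb1 7.41, 18.4, 5.15 and 10.3. H2-Ab1 and H2-Eb1 were thus near the median of 10.5 per kb over the 158 gene bodies of the region. The exchange chains H2-DMb1 (4.14, 11.2, 2.19 and 8.52) and H2-DMb2 (6.82, 8.09, 5.43 and 4.24) were alike in level. H2-DMa had 14.6, 18.3, 21.2 and 17.1, over a span that overlaps a stretch of Brd2. In the classical genes and the DM chains, naive and peak values overlapped except at H2-DMb2, where both peak values were below both naive ones. At H2-Oa both peak values were also below both naive ones, narrowly in peak 2.

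Among class I genes, 5 of 15 bodies had no listed window: H2-K1, H2-Q1, H2-Q2, H2-M10.1 and H2-M3. H2-D1, the classical gene of the D end, had 2.67, 0, 1.22 and 3.60 per kb. H2-Q7, a nonclassical gene of the Q series, was the highest of the group with 17.8, 51.1, 21.4 and 25.8, followed by H2-Q6 with 10.5, 7.73, 8.47 and 11.8. H2-T23, which encodes Qa-1, had reads in naive 2 alone (8.08 per kb). The median over the 15 bodies was 2.02 per kb, against 51 for the peptide loading genes and 10.5 for all 158.

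Cytokine genes showed a sharp border. From Aif1, a calcium-binding protein of macrophages, through Lst1 and Ltb to the end of Tnf (35170986 to 35202007) only 30 windows were listed, and 26 of them had at most 10 reads in any library. The other 4 lay at the 3′ end of Tnf (35199351 to 35199550), with at most 17, 19, 11 and 36 reads. The bodies of Tnf and Ltb had no listed window, while Lta, next to Tnf, had 37.7, 35.3, 28.7 and 30.0 per kb. In the Lta body both peak values were below both naive ones, the opposite of its start. The stretch from Aif1 to Tnf was singled out after its values were seen. Complement genes were intermediate: C4b, complement component 4, had 16.0, 16.4, 16.9 and 16.0. C2 had 9.33, 5.71, 9.62 and 7.72, and Cfb, complement factor B, 2.43, 7.23, 10.6 and 6.04. Among neural genes, Mog, the source of the immunising peptide, had 4.38, 6.38, 5.26 and 3.5, and Gabbr1, a GABA receptor subunit, had 15.9, 16.2, 19.4 and 16.0. Tubb5, a beta tubulin, had 77.9, 183, 47.0 and 106, and Flot1, a membrane raft protein, 12.7, 15.1, 18.2 and 13.7.

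**Figure D5:**
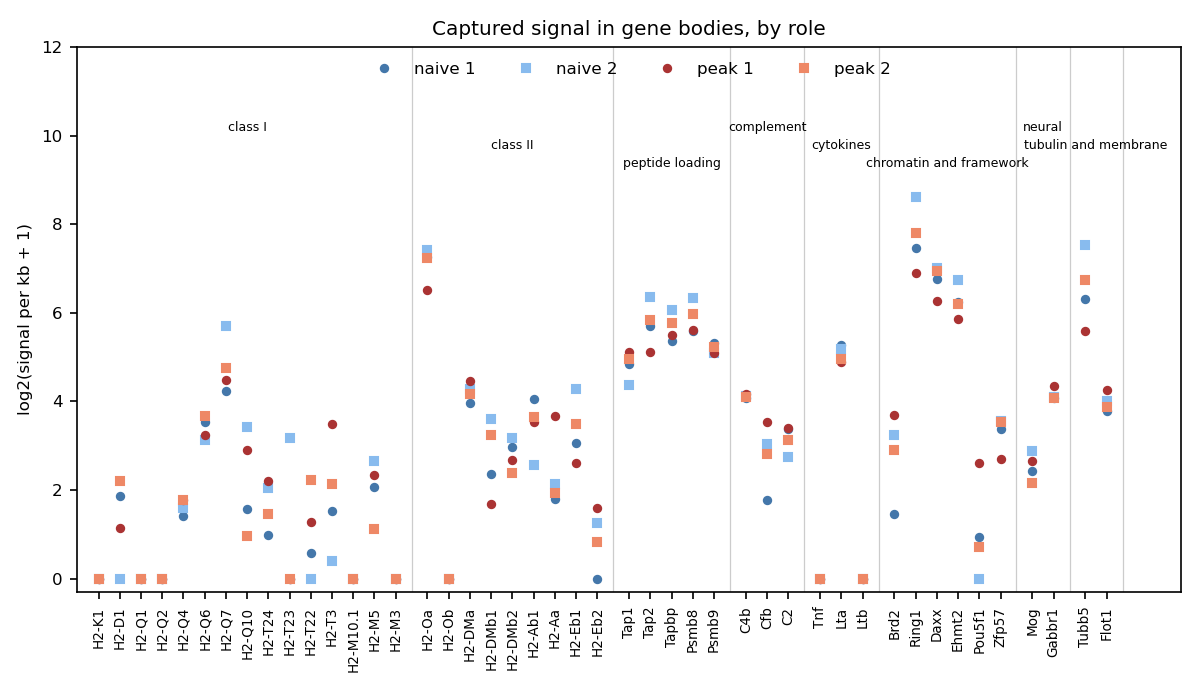
Captured signal in gene bodies of the fixed genes (y axis, log2 of signal per kb plus 1), ordered by role, 1 point per library. Points at 0 have no signal in that library. The 5 peptide loading genes lie well above most class I genes.

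Peak and naive libraries were then compared feature by feature, with limma on log2(value + 1) over all features of chromosomes 1 to 19 with at least 20 reads in total and Benjamini-Hochberg adjustment. Of 2505 windows of the region tested, 0 passed an adjusted p of 0.05, and 0% of all 936715 windows did. The lowest adjusted p in the region was 0.818. Without adjustment 64 windows had p under 0.05, 38 higher and 26 lower at peak, which is 2.55% beside 4.57% of all windows tested. The edgeR quasi-likelihood test called 0 windows of the region, with 106 under an unadjusted 0.05, beside 50940 of all 936715 windows. DESeq2 called 0, with 31 under an unadjusted 0.05, beside 17533 of all windows. Fitted without naive 1, limma called 62 windows higher (2.48%, beside 2.64% of all windows) and 24 lower (0.958%, beside 1.01%), with naive 2 as the lone naive library.

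Of 281 bins of 10 kb in the region 0 were called by limma (0% of all 172227), with 10 under an unadjusted 0.05 (3.56%, beside 5.06% of all). Under an unadjusted 0.05, edgeR gave 9 (beside 7814 of all 172227 bins) and DESeq2 21 (beside 16298). Of 58 gene starts 0 were called (0.0167% of all 5989 called higher, 0% lower), with 3 under an unadjusted 0.05 by limma (beside 5.18% of all). For starts, edgeR gave 3 (beside 254 of all 5989) and DESeq2 2 (beside 272). Of 128 gene bodies 0 were called (0.00606% of all 16509 called higher, 0% lower), with 10 under an unadjusted 0.05, 7 higher and 3 lower. That is 7.81% beside 3.95% of all gene bodies. For bodies, edgeR gave 1 (beside 493 of all 16509) and DESeq2 3 (beside 772). The bin with the smallest p, at 35810001 to 35820000 and 1713 bp from Ier3, had mean values per 50 bp position of 1.08 and 3.05 in naive and 0.596 and 1.0 in peak, a log2 change of -0.70 ± 0.26 (SE) with a limma adjusted p of 0.70. The bin at 34740001 to 34750000, which overlaps C4b and Stk19-ps1, had 4 and 0 reads in naive and 83 and 25 in peak. Its log2 change was 0.27 ± 0.11 (SE, limma adjusted p 0.784). Its values per 50 bp position were 0.0227 and 0 in naive and 0.344 and 0.102 in peak. Adding 1 to values this low shrinks the log2 change far below the ratio of the values. With bin values per kb before adding 1, an alternative added after the data were seen, limma called 0 bins of the region (lowest adjusted p 0.652). The median log2 change over the region's gene bodies was -0.01, and over its windows -0.10. Scaling by reads outside the windows of over 2000 reads moved the median over all windows from -0.09 to 0.15 and that of the region's windows to 0.15, so only differences beyond that shift would show a direction.

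The features with the smallest p are given as values, since none passed. The window at 34733651 to 34733700 in C4b had 3 and 2 naive reads against 20 and 15 at peak, a log2 change of 1.99 ± 0.63 (SE) with a limma adjusted p of 0.818. The window at 34097901 to 34097950, 2592 bp from BC051537, had 2 and 2 against 15 and 17 reads. The window at 36036401 to 36036450 in A930015D03Rik had 3 and 2 against 16 and 17. In the other direction, the window at 34226001 to 34226050, 9680 bp from Tap2, had 9 and 36 reads in naive and 3 and 8 in peak, a log2 change of -2.10 ± 0.65 (SE). The window at 34977651 to 34977700 in the Hspa1l run had 8 and 56 against 3 and 15. The window at 36068251 to 36068300, 493 bp from Gm8810, had 8 and 21 against 6 and 5. The groups did not overlap in the 3 higher windows or in the lower windows at 34226001 and 36068251. They overlapped in the Hspa1l window. These windows were picked for the smallest p, so separation of the groups follows in part from the choice. The share of all tested windows without overlap was not counted. In all 3 lower windows naive 2 held most of the naive reads.

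Among gene bodies, Rnf5, a membrane-bound ubiquitin ligase, had 8.54 and 3.18 per kb in naive and 16.4 and 17.9 in peak (log2 change 1.52 ± 0.42 SE, limma adjusted p 0.913). H2-T3, the thymus leukaemia antigen, had 1.90 and 0.324 against 10.2 and 3.42, and Nrm, the nuclear envelope protein nurim, 8.05 and 0 against 13.4 and 14.4. Lower at peak were H2-Ke6, a steroid dehydrogenase gene, with 14.4 and 27.2 against 4.05 and 10.4 (log2 change -1.46 ± 0.45 SE), the class I gene H2-M10.5 with 2.93 and 13.5 against 2.14 and 1.05, and the predicted gene Gm6034 with 11.1 and 37.7 against 5.30 and 12.1. Naive 2 was the highest library for these 3 and the lowest for Rnf5, H2-T3 and Nrm. Among gene starts, Ly6g5b, a gene of the Ly6 family, had 14.4 and 5.42 in naive and 22.1 and 49 in peak (log2 change 1.77 ± 0.67 SE), and Atf6b, a stress sensor of the endoplasmic reticulum, 17.4 and 0 against 22.1 and 19.1. Col11a2, a collagen gene, had 64.3 and 4.65 against 51.3 and 35.9, and without naive 2 its direction turned. Lower were Gm11127, C2 and BC051142, the last with 11.4 and 17.8 against 3.86 and 5.99.

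RNA was the second readout of the same genes. Of 173 protein-coding genes that touch the region, 171 matched a row of the RNA-seq table and 116 had at least 50 counts over both libraries. At peak, 38 of the 116 were at least 2-fold higher (32.8%), beside 11.6% of 14367 genes tested, and 5 were at least 2-fold lower, beside 9.35%. With 1 library per condition there is no replicate check and no test, and intervals are exact 95% intervals of counting error alone. The median log2 ratio over the 116 genes was 0.43, and over all genes it was -0.0027.

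Antigen presentation and complement genes made up 22 of these 38. Of the class I genes tested 8 of 9 were at least 2-fold higher, of class II 7 of 8, of peptide loading 4 of 5 and of complement 3 of 3. H2-K1 had 7924 naive and 79965 peak counts, a ratio of 9.18 (8.97 to 9.40), and H2-D1 8794 and 78457, a ratio of 8.12 (7.94 to 8.30). H2-Ab1 had 4770 and 47290 counts (9.02, 8.76 to 9.30), and Tap1 2176 and 20715 (8.66, 8.29 to 9.06). C4b had 1229 and 52725 counts, 39.0 times as much (36.9 to 41.3), and Cfb 0 and 500, which is 152-fold with the naive count set to a floor of 3 counts. The exact interval for Cfb runs from 123-fold upward. H2-Q7 (78 and 6659 counts) and H2-Q6 (174 and 7904) had ratios of 77.2 and 41.2, and reads of these close copies may be split between them. H2-T24, H2-Ob and Tapbp were the tested members of these lists under 2-fold, with ratios of 1.34, 0.970 and 1.95. Tnf had 953 and 5822 counts (5.56, 5.19 to 5.96) and Ltb 105 and 81. At least 2-fold lower were Gabbr1 (2170 and 988 counts), Notch4 (2734 and 1397), Tnxb (82 and 36), Ddr1 (226 and 83) and Zfp57 (57 and 29). Mog itself had 36 and 23 counts.

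The RNA ratios were then set beside the captured DNA. H2-K1 had no listed window at its promoter or in its body. H2-D1, H2-Aa and H2-Eb1 had unlisted promoters. Their bodies were low at H2-D1 and H2-Aa and near the regional median of 10.5 per kb at H2-Eb1. Ring1 and Ehmt2, with high bodies, had RNA ratios of 1.21 and 1.46. Of the 5 chromatin and framework genes tested, 1 was at least 2-fold higher and 1 (Zfp57) lower. Ring1, Ehmt2 and Brd2 were neither, and the ratio of Daxx is not given here. Some other genes with bodies above the median were at least 2-fold higher, while others, such as Tapbp and Flot1, were not. Tubb5 was 1 of them, and 4 of the 5 peptide loading genes were others. The 5 peptide loading bodies had means from 27.7 to 59.3 per kb. Of the 38 genes at least 2-fold higher, 31 had a promoter entry, and 29 of these had no listed window at any promoter. Of the 63 genes with an entry that were neither higher nor lower, 59 had none. Of the 5 lower genes, 3 had none, and Zfp57 and Tnxb had a listed promoter. The median captured signal in gene bodies was 9.64 per kb over 37 of the higher genes, 23.8 over 72 genes that were neither and 16.9 over the 5 lower genes. These are descriptions across genes, which are not replicates.

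Marker sums of other cells went both ways at peak. Those of monocytes, T cells and neutrophils were higher, and those of astrocytes, endothelial cells and oligodendrocytes were lower. The 2 astrocyte markers disagreed: Aqp4 went from 1171 naive to 487 peak counts, and Gfap from 89 to 258. The summed counts of 4 monocyte markers (Ly6c2, Ccr2, Fn1, Plac8) went from 1397 to 37712, none at 0 in either library. Fn1 made up most of this sum, with 816 naive and 35840 peak counts. Ly6c2 had 5 and 338, Plac8 34 and 475, and Ccr2, of which the mice carry 1 reporter copy, 542 and 1059 (a ratio of 1.78). The 6 microglial markers summed to 1130426 and 841492. The 4 T cell markers summed to 66 and 191, with Cd3e and Cd3g at 0 in naive. Whether more monocyte-derived cells entered the sort or the same cells held more of these RNAs cannot be told apart, and the role of other cells in the RNA ratios or in the captured signal was not tested.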

How the data were processed

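MiGS was done on 2 naive and 2 peak libraries and RNA-seq on 1 of each. The submitters' processing notes name build mm10, featureCounts, edgeR, TopHat and Bowtie2, without roles or versions. The deposited MiGS files hold a scaled signal per 50 bp window, equal to whole reads divided by 1 size factor per library (100% of values whole within 0.001). The deposited RNA-seq table holds raw gene counts (per the file headers) and, by the authors, FPKM values, which were not tested. 0 columns of samples outside this series were found.

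Members and lists were chosen with earlier results of these data known. The main test was limma 3.58.1 (variance trend) on log2(value + 1), two-sided, for features with at least 20 reads in total, Benjamini-Hochberg at 0.05. Because values are scaled signal, edgeR 4.0.16 and DESeq2 1.42.0 on recovered reads were alternatives. Bins hold the mean value per 50 bp position. Gene starts run from 1000 bp before to 500 bp after the outermost RefSeq start, or over both ends of a gene with no promoter entry. Gene bodies leave out 500 bp at each end and need 500 bp. Named were subregion anchors, the 2 highest starts and bodies per subregion, the 3 smallest p per direction and kind, the 5 runs with the highest sum and 47 genes by role, though not each of them is printed. RNA-seq counts were scaled by TMM over genes with at least 50 counts, and ratios add 0.5. Exons and introns were not annotated. Marker lists for neutrophils, astrocytes, endothelial cells and oligodendrocytes (2 genes each matched, of 3 for the last) summed to 151, 1260, 2324 and 2323 naive and 249, 745, 1140 and 2168 peak counts. Another marker list is not reported here. Scripts were tested on simulated data. Intervals cover counting error only.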

Additional observations from a re-analysis of the deposited data

How the results depend on the processing

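The replicate block was tried because the groups share replicate numbers, which the labels do not say mark a shared pool. Same-numbered libraries deviated together (r = 0.398 over 936715 windows). With the replicate block, limma called 2 windows of the region higher (0.0798%, beside 0.264% of all windows) and 134 lower (5.35%, beside 7.22%). It called 5 bins lower (1.78%, beside 2.07%), 1 gene start lower (1.72%, beside 4.02%), and 3 gene bodies higher (2.34%, beside 1.32%) and 8 lower (6.25%, beside 5.58%). The edgeR test with replicate block, added after seeing the data, called 4 windows higher (0.16%, beside 0.327%) and 99 lower (3.95%, beside 4.93%), and 2 gene bodies lower (1.56%, beside 3.54%). The difference of the region ratio was -0.01 with the replicate block. Leaving out 1 library gave 0 to 62 windows higher, 0 to 24 lower, 0 to 1 gene bodies higher, and a region difference from -0.12 to 0.0935 (without peak 1). The window counts came from leaving out naive 1 and the gene body (0.781%) from leaving out peak 1 or peak 2, where 0.0848% and 0.394% of all bodies were called higher, and a lone library is assumed to vary like the other group.

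With windows of over 2000 reads kept, the difference between peak and naive was 0.10, and by share of positions it was 0.0116. The mean log2 ratio of the region to its reference (0.58) was 0.43 with those windows kept and 0.91 against the other autosomes. Against the other autosomes the K end had 2.19, class II 0.83, Btnl -0.42, class III 1.82, D and Q 0.064, the framework 1.35, T 0.39 and the M, Trim and olfactory receptor interval -0.85. By share of positions the K end had 1.65, Btnl -0.59, class III 1.34, the framework 0.73 and T 0.32. With those windows kept, class II had 0.34, class III 1.33, D and Q -0.42 and T -0.10. Pseudocounts of 0.5 and 2 and minimums of 10 and 50 reads called 0 windows of the region. With 1 library left out, the log2 change of the bin at 35720001 ran from -1.35 to 0.25 and that of the Col11a2 start from -0.57 to 2.96, and both turned direction without naive 2. Of 313 values of 24 named features under alternatives, 289 kept their direction and side of the threshold, 22 passed the threshold and 2 reversed. The causes were not tested. Whether depth limits the calls was not tested.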
